A study of Homo sapiens with 4 samples.

Results

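DNA methylation on the cytosine of CpG pairs has to be copied onto each new strand when DNA is replicated, and 10 genes that encode the machinery of this upkeep, of new methylation and of its removal were followed in a myeloma line treated with MLN4924. They were CDCA7, HELLS, UHRF1, UHRF2 and DNMT1 for upkeep, DNMT3A and DNMT3B for new methylation, and TET1, TET2 and TET3 for removal, out of 19775 genes with a probe set of their own on the array. CDCA7 was selected on its log2 differences from control at 16 and 24 h, which were among the lowest of all genes, so its late values are given as a description. The other 9 genes were chosen for their role, with earlier results of these data known. All 22 probe sets annotated to the 10 genes were examined, and 20 of them counted as measured. MM.1S is an established cell line from multiple myeloma, a cancer of plasma cells. MLN4924 inhibits the enzyme that activates NEDD8, a ubiquitin-like protein that cullin-RING ubiquitin ligases need for activity. The groups were MM.1S cells given 250 nM MLN4924 for 8 h, for 16 h and for 24 h, and MM.1S control cells given DMSO, for which the labels state no time, with 1 array each. No test between groups was possible, and each difference is that of 1 array from another.

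After replication the new strand lacks its methyl groups, and UHRF1, a ubiquitin ligase, binds such hemimethylated CpG and marks the site for DNMT1, the methyltransferase that restores the methyl group. HELLS is an ATPase of the SNF2 family that moves nucleosomes, and the zinc-finger protein CDCA7 brings it to chromatin. Inherited loss of CDCA7, HELLS, DNMT3B or the zinc-finger factor ZBTB24 causes ICF syndrome, in which lymphocytes lose methylation near centromeres. DNMT3A and DNMT3B place methyl groups at new sites, and the TET enzymes oxidise methylcytosine as the first step of its removal.

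The arrays were alike in overall brightness, with median intensities between 92.2 and 95.4, and the 3' to 5' intensity ratio was between 1.18 and 1.21 for GAPDH and between 1.95 and 2.21 for beta-actin. The 12 plasma cell and myeloma markers examined, among them IRF4, XBP1 and MAF, were all measured. The summed intensity of those markers was 90421 in control cells and 78344, 85427 and 83526 after 8, 16 and 24 h of treatment. Most markers of B, T and NK, myeloid and stromal cells had intensities near or under the array medians. Summed intensities on the 4 arrays were 368 to 392 for the T and NK list and 312 to 367 for the myeloid list. CD3E, GNLY, ITGAM and MPO of those lists counted as measured, with intensities of at most 123. CR2, the measured B cell marker, had 633 in control cells and 504, 360 and 333 after 8, 16 and 24 h, so that the summed B cell list was lower on the late arrays too (528 and 511, against 781 in control cells). COL1A1, the measured stromal marker, had intensities between 206 and 244. HBB, an erythroid marker, had intensities between 995 and 1219. ALAS2, the other erythroid marker with a probe set of its own, did not count as measured. It had 78 in control cells and 75, 99 and 81 after 8, 16 and 24 h. The part of other cells in the results was not tested.

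The promoter letters of the 4 upkeep genes that were lower on the late arrays are shown first, beside those of UHRF2, the paralogue of UHRF1 that stayed near its control level. The windows come from RefSeq on build GRCh38.p14 and run from 250 bases before an annotated transcript start to 50 bases from the start on, so that base 251 is the first transcribed one. They lie at chr2:173354622-173354921 on the plus strand for CDCA7, chr10:94545538-94545837 on the plus strand for HELLS, chr19:4909251-4909550 and chr19:4909894-4910193 on the plus strand for the first and second window of UHRF1, chr19:10194904-10195203 on the minus strand for DNMT1 and chr9:6412949-6413248 on the plus strand for UHRF2. Capitals mark 8-letter matches to 4 forms of the site that E2F transcription factors bind, read on either strand.
CDCA7: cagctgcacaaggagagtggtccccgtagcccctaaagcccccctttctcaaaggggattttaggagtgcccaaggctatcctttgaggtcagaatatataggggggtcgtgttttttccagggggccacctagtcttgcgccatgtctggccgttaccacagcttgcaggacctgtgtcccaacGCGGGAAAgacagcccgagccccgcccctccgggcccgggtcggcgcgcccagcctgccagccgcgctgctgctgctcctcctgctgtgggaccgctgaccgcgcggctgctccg
HELLS: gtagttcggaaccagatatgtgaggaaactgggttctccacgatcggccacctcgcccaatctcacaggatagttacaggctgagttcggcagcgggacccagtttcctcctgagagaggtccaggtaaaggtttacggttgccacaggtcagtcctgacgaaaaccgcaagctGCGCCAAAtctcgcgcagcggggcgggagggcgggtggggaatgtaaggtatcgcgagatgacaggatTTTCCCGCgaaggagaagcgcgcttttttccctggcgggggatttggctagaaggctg
UHRF1 window 1: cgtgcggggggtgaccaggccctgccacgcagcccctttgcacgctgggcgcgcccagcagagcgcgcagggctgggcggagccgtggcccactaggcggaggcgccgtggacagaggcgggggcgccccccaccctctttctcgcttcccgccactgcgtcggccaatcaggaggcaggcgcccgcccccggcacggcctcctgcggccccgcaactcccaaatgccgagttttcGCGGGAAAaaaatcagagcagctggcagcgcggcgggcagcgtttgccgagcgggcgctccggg
UHRF1 window 2: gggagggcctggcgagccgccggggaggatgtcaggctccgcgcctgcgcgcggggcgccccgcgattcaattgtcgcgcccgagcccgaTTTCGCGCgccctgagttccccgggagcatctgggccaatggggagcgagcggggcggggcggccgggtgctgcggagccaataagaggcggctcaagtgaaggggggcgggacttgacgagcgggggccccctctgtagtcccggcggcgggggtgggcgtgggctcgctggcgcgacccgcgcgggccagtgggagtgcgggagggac
DNMT1: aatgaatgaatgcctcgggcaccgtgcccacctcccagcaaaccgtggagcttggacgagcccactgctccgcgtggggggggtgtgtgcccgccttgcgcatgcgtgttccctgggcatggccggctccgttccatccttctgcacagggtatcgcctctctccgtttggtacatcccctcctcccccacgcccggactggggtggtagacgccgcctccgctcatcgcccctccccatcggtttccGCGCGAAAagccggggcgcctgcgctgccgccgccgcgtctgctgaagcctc
UHRF2: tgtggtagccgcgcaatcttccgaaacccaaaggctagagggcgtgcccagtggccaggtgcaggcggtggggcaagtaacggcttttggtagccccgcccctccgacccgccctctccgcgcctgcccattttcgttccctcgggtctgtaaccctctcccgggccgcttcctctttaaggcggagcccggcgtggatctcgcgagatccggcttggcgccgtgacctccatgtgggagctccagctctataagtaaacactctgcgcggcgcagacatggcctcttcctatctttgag

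The letters searched were TTTCGCGC, TTTGGCGC, TTTCCCGC and TTTGGCGG for E2F sites and CACGTG for the E-box, which MYC and its relatives bind, on both strands. All 10 genes had a window, 21 in all. CDCA7, HELLS, UHRF1 and DNMT1 each held an E2F match in at least 1 window, and no window of the other 6 genes held one. TET3, one of those 6, stood lower than DNMT1 on both late arrays by its brightest probe set. At 16 and 24 h TET3 was at -0.62 and -0.69 (log2) and DNMT1 at -0.38 and -0.60. Whether the letters go with the late differences was not tested. The only DNMT3B window, chr20:32779602-32779901, lies inside the gene, whose annotated span begins at base 32762385. The region before that base was thus not searched for DNMT3B. The windows of UHRF1 and TET3 also lie after the first base of the gene's span. In CDCA7 the match TTTCCCGC was on the opposite strand, 65 to 58 bases before the start. HELLS held TTTGGCGC on the opposite strand at 76 to 69 bases before the start and TTTCCCGC on the gene's own strand at 8 to 1 bases before it. UHRF1 held TTTCCCGC on the opposite strand at 14 to 7 bases before the first of its 3 starts and TTTCGCGC on its own strand at 160 to 153 bases before the second. In DNMT1 the match TTTCGCGC on the opposite strand reached across the start, from 2 bases before it. No E2F match overlapped another match. Across all 35116 windows, 3.35% held an E2F match, as did 6.70% of the 10038 measured genes with a window and 12 of the 18 S phase genes with one. E-box letters were in windows of DNMT3A (1 site, shared by 2 overlapping windows), TET2 and TET3, and in 7.26% of all windows. By gene, 12.5% of the measured genes with a window held them, as did 3 of the 18 S phase genes. A match is a run of letters, not a shown binding site, and the list was chosen with its expression values known.

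**Figure D1:**
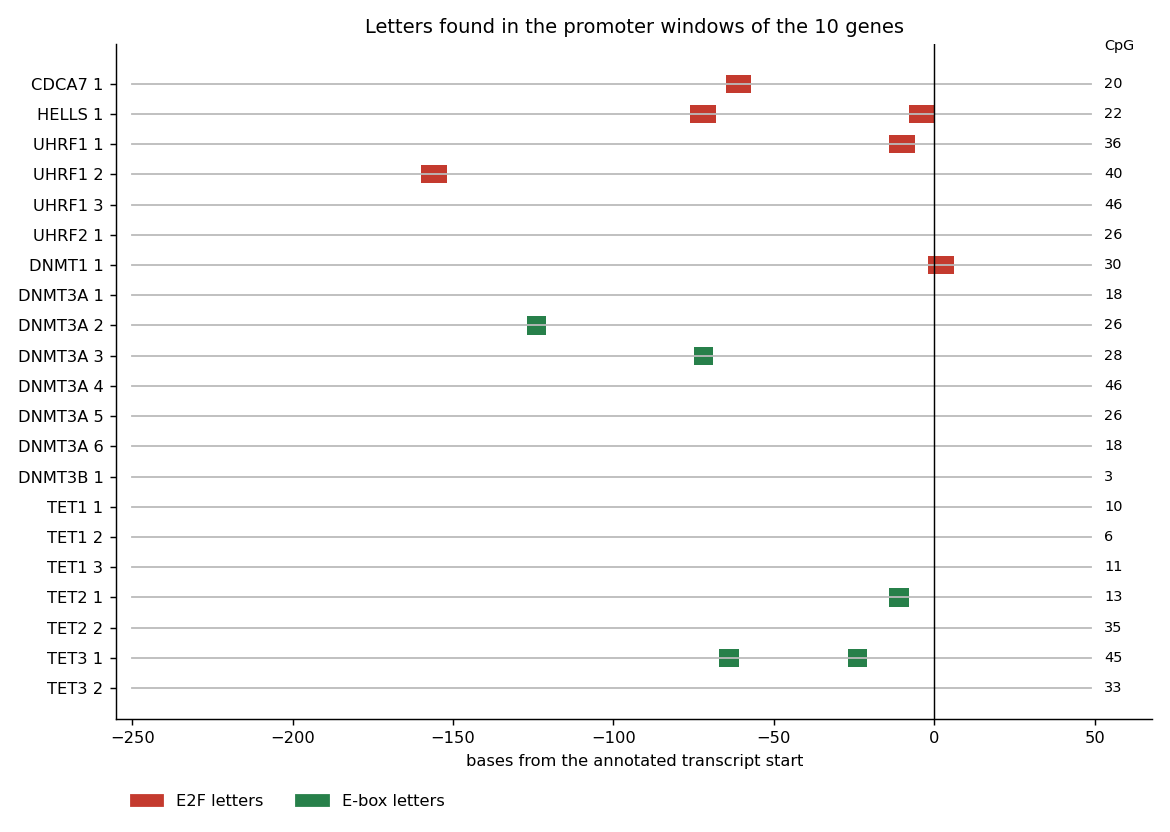
Matches in the 21 promoter windows of the 10 genes, by distance in bases from the annotated transcript start (0 on the horizontal axis). Each row is 1 window, red blocks are E2F letters, green blocks E-box letters, and the number at the right is the count of CpG pairs in the 300 bases; the red blocks lie only in rows of CDCA7, HELLS, UHRF1 and DNMT1.

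The windows also differed in CpG pairs, the substrate of these enzymes. The windows of CDCA7, HELLS, UHRF1 and DNMT1 held 20, 22, 36 to 46 and 30 CpG pairs, against a median of 14 over all windows. The windows of the other 6 genes held 3 to 46, so the ranges overlapped. The single window of DNMT3B, which lies inside the gene, held 3, and those of TET1 held 6 to 11. Those of TET2 held 13 and 35, that of UHRF2 26, those of DNMT3A 18 to 46 and those of TET3 33 and 45. The genes themselves were of unlike length: CDCA7 spans 14.1 kb on chromosome 2, HELLS 68.1 kb on chromosome 10, UHRF1 59.1 kb and DNMT1 61.6 kb on chromosome 19, and UHRF2 93.9 kb on chromosome 9. DNMT3A spans 115 kb and TET3 152 kb on chromosome 2, DNMT3B 47.0 kb on chromosome 20, TET1 134 kb on chromosome 10 and TET2 134 kb on chromosome 4.

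CDCA7, the HELLS partner, had the largest difference of the 10 genes at each time. Its brighter probe set, 224428_s_at, had intensities of 887 in control cells and 523, 280 and 273 after 8, 16 and 24 h of treatment. The order of the arrays is thus control, 8 h and then the late pair, which lay close together. On the log2 scale CDCA7 stood at -0.76, -1.66 and -1.70 against control at 8, 16 and 24 h, or 1.70-fold, 3.16-fold and 3.25-fold lower. Among 12446 measured genes, counted from the lowest, those were places 41, 3 and 2 at 8, 16 and 24 h. A second probe set, 230060_at, had 163 in control cells and 114, 81.1 and 77.8 after 8, 16 and 24 h of treatment, the last 2 under the medians of their arrays. Its differences were -0.52, -1.01 and -1.07, the same order with smaller sizes. The gap between the 2 probe sets of CDCA7 was larger than the usual spread between probe sets. That usual spread is the pooled SD of the difference among measured probe sets of the same gene. It was 0.16, 0.19 and 0.18 (log2) at 8, 16 and 24 h over 5719 genes. It stands in here for technical error because there were no replicates. Effects of culture, labelling or array that these probe sets share are not in it, so arrays may differ by more.

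HELLS, the remodeller that CDCA7 recruits, was near its control level at 8 h and lower on both late arrays. Its brightest probe set, 227350_at, had intensities of 3397 in control cells and 3254, 1752 and 1734 after 8, 16 and 24 h of treatment. The control and 8 h arrays formed a high pair and the 16 h and 24 h arrays a low pair. The differences of HELLS from control were -0.062, -0.96 and -0.97 (log2), and the late ones correspond to 1.94-fold and 1.96-fold lower. All 5 probe sets had this pattern. Over them the difference ranged from -0.17 to 0.14 at 8 h, from -0.96 to -0.69 at 16 h and from -0.98 to -0.78 at 24 h. The probe set 234040_at, which was too dim to count as measured, had 109, 103, 58.7 and 63.5 in the order of time, with late differences of -0.89 and -0.78.

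UHRF1, which reads hemimethylated CpG, was lower at 16 h and lower again at 24 h. Its single probe set, 225655_at, had intensities of 2681 in control cells and 2421, 1613 and 1317 after 8, 16 and 24 h of treatment. The differences of UHRF1 were -0.15, -0.73 and -1.03 (log2), the last 2.04-fold lower, and in place from the lowest UHRF1 was 2544, 158 and 22 at 8, 16 and 24 h. UHRF2 shares the domain layout of UHRF1, but in mouse embryonic stem cells it does not replace UHRF1 in upkeep. Its probe set 225610_at had 1861 in control cells and 2095, 1866 and 1867 after 8, 16 and 24 h of treatment. UHRF2 thus stood at 0.17, 0.0039 and 0.0044 (log2), with both late arrays at the control value. At 24 h UHRF1 lay far below the range of 1 pooled SD around 0 and UHRF2 inside it. At 8 h UHRF2 lay just above that range (0.17 against 0.16).

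DNMT1, the upkeep methyltransferase itself, differed less. The probe set 201697_s_at, the only one of DNMT1, had intensities of 4454 in control cells and 3849, 3414 and 2947 after 8, 16 and 24 h of treatment. Each array was dimmer than the one before it in time. The differences were -0.21, -0.38 and -0.60 (log2), the last 1.51-fold lower. DNMT1 lay in place 269 from the lowest at 24 h and 897 at 16 h.

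**Figure D2:**
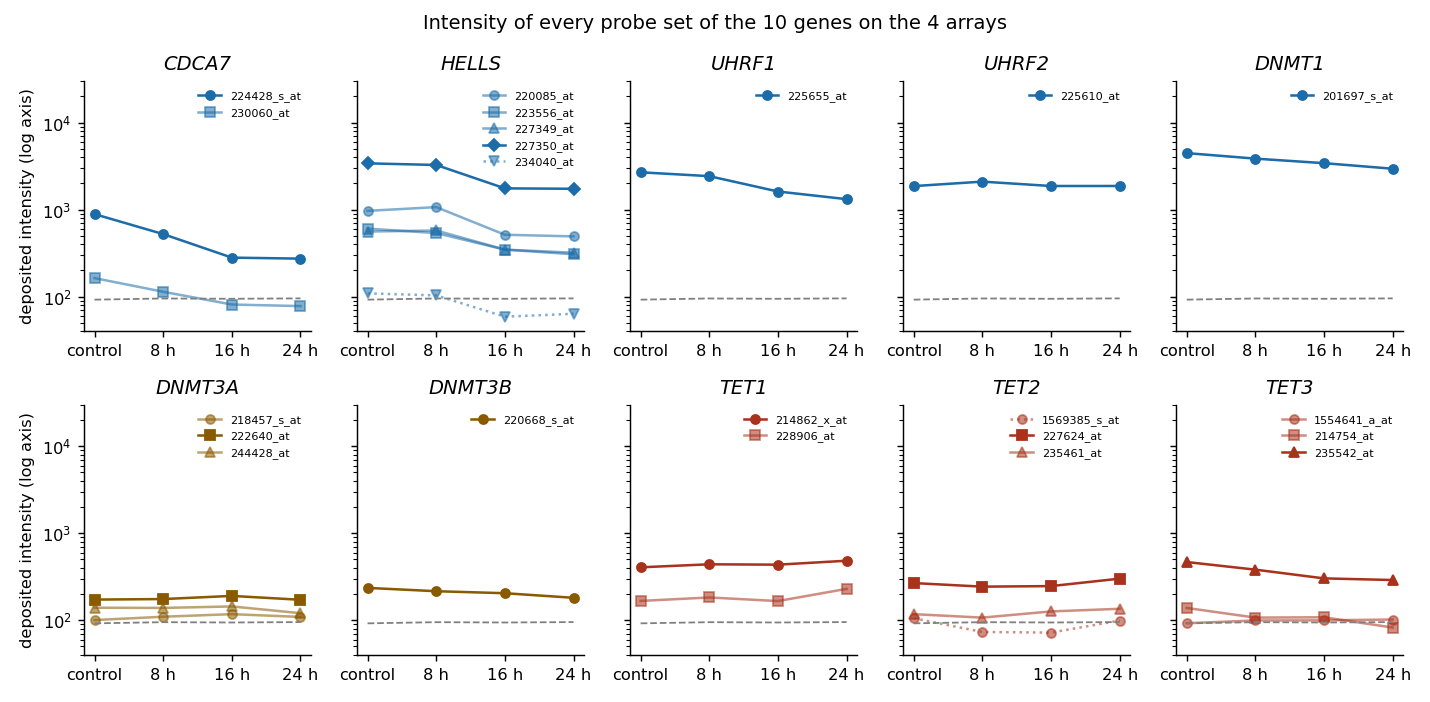
Deposited intensity (log axis) of each of the 22 probe sets on the control array and after 8, 16 and 24 h of MLN4924, with 1 array per point, in blue for upkeep, brown for new methylation and red for removal. Full colour marks the probe set that stands for the gene and dotted lines the 2 probe sets too dim to count. Grey dashes are the median of each array. All 5 HELLS probe sets are lower on both late arrays, and UHRF2 is at its control value on both.

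The enzymes of new methylation had smaller differences. DNMT3A had 3 probe sets, all of them between 101 and 191 on every array, against array medians between 92.2 and 95.4. The probe set 222640_at had 173 in control cells and 175, 191 and 172 after 8, 16 and 24 h of treatment, so that DNMT3A stood at 0.020, 0.14 and -0.0070 (log2). The other 2 probe sets disagreed in sign at 24 h, with 0.12 for 218457_s_at and -0.21 for 244428_at. DNMT3B, measured by 220668_s_at alone, had intensities of 236 in control cells and 216, 205 and 181 after 8, 16 and 24 h of treatment. DNMT3B was lowest at 24 h, with differences of -0.13, -0.20 and -0.38 (log2), and the 16 h and 24 h ones were past 1 pooled SD.

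The TET genes did not move together. TET3 was lower by its brightest probe set, 235542_at, which had 467 in control cells and 382, 303 and 290 after 8, 16 and 24 h of treatment. These are differences of -0.29, -0.62 and -0.69 (log2) for TET3, or 1.61-fold lower at 24 h. The probe set 214754_at had the same direction, with 139, 107, 108 and 82.5 in the order of time and a 24 h difference of -0.75. The probe set 1554641_a_at of TET3 went the other way, with 92.5, 99.5, 99.8 and 102 and a 24 h difference of 0.14, at intensities near the array medians. The direction of TET3 therefore rests on 2 of its 3 probe sets.

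TET1 was slightly higher at 24 h, with intensities of 406 in control cells and 440, 436 and 484 after 8, 16 and 24 h of treatment for 214862_x_at, whose name marks possible binding of other transcripts. The differences of TET1 were 0.12, 0.10 and 0.25 (log2). The other probe set of TET1, 228906_at, had 167, 183, 166 and 230 in the order of time, and stood at 0.46 at 24 h. TET2 had 268 in control cells and 244, 247 and 301 after 8, 16 and 24 h of treatment for 227624_at. Its differences of -0.14, -0.12 and 0.17 (log2) were each within 1 pooled SD of 0. The other measured probe set of TET2, 235461_at, stood at -0.13, 0.10 and 0.20, with the 24 h value past 1 pooled SD. For 1569385_s_at of TET2, which did not count as measured, the values were 106, 73.4, 72.2 and 99.2, with differences of -0.52, -0.55 and -0.090.

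**Figure D3:**
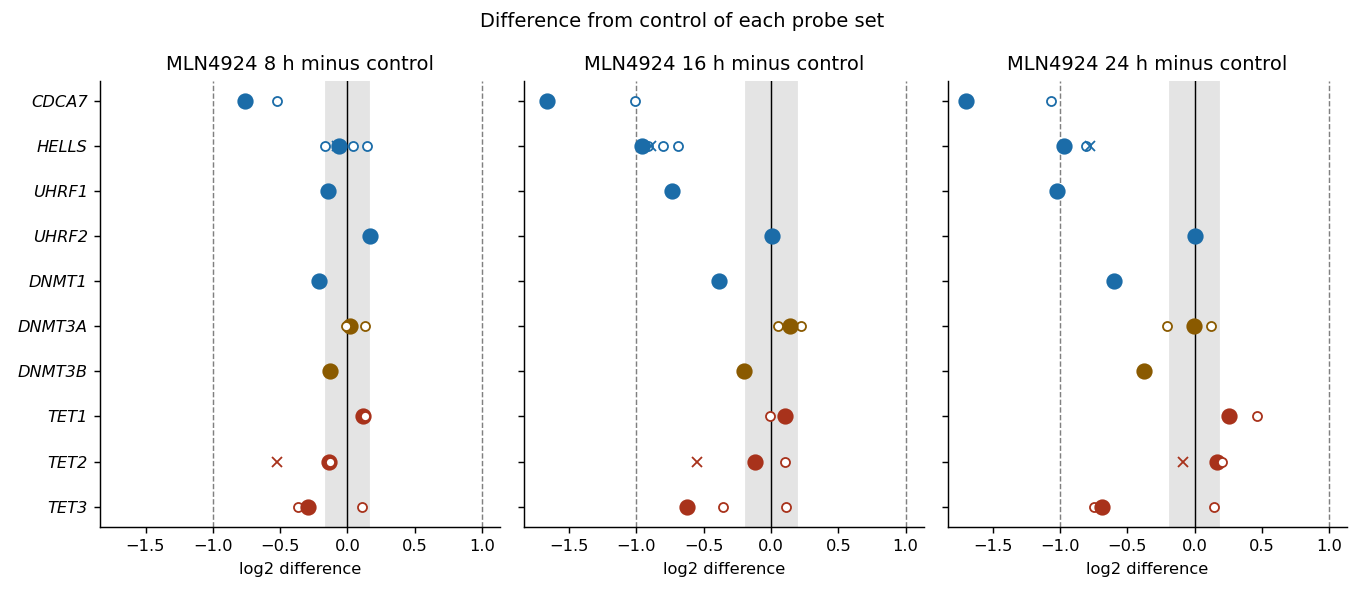
Log2 difference from control of each probe set at 8, 16 and 24 h, by gene. Large filled points are the probe sets that stand for the gene, small open points the other measured ones and crosses those not measured; the grey band is 1 pooled SD between probe sets of the same gene on either side of 0, and the dashes mark 2-fold, which CDCA7 and UHRF1 pass at 24 h.

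Counted as genes, 0 of the 10 were at least 2-fold lower at 8 h, 1 at 16 h (CDCA7) and 2 at 24 h (CDCA7 and UHRF1). Of all 12446 measured genes, 0.121% were at least 2-fold lower at 8 h, 0.289% at 16 h and 0.193% at 24 h. No member was at least 2-fold higher at any time, where 0.129%, 0.386% and 0.514% of measured genes were at 8, 16 and 24 h. UHRF1 at -1.03 lay just past 2-fold at 24 h and HELLS at -0.97 just short of it, a gap smaller than the spread between probe sets. At 1.5-fold, a threshold added after the values were seen, 1 member was lower at 8 h (CDCA7) and 4 at 16 h (CDCA7, HELLS, UHRF1 and TET3). At 24 h the number was 5, with DNMT1 in addition. With the median over its measured probe sets TET3 stood at -0.36 at 16 h and -0.44 at 24 h and was past 1.5-fold at neither time, which left 3 and 4 genes. The share of measured genes past that threshold was 1.12%, 2.73% and 2.31% at 8, 16 and 24 h. The median of the 10 genes was -0.13, -0.29 and -0.49 (log2) at 8, 16 and 24 h, while that of all measured genes was 0.0071, 0.026 and 0.016. The members were chosen with these values in view, so the counts describe them and are no evidence that the group stands apart.

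**Figure D4:**
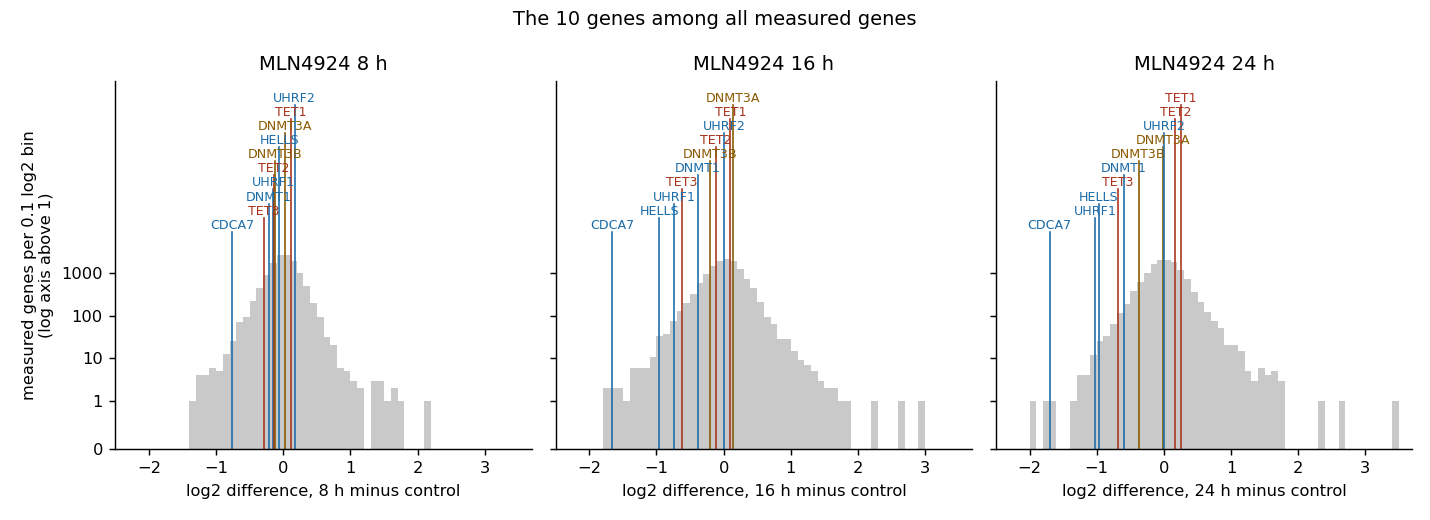
Histogram of the log2 difference from control of all 12446 measured genes (grey, log axis above 1), with the 10 genes marked by lines whose height only makes room for the names. CDCA7 lies in the outer left tail at 16 and 24 h, and UHRF2 and DNMT3A lie in the middle at 24 h.

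The steps between times differed among the upkeep genes, most clearly from 8 h to 16 h. From 8 h to 16 h the step was -0.90 (log2) for CDCA7, -0.89 for HELLS and -0.59 for UHRF1. It was -0.17 for both DNMT1 and UHRF2. From 16 h to 24 h the step was -0.039 for CDCA7 and -0.015 for HELLS, against -0.29 for UHRF1, -0.21 for DNMT1 and -0.17 for DNMT3B. Over the 5 probe sets of HELLS that step ranged from -0.18 to 0.11, so its range takes in the step of DNMT3B. The steps of DNMT1 and UHRF1, from 1 probe set each, lay past that range by less than the pooled SD at 24 h. The later step therefore does not separate HELLS from them. Both probe sets of CDCA7 had small steps (-0.039 and -0.060). CDCA7 differed from HELLS at 8 h, where CDCA7 was already at -0.76 and HELLS at -0.062. TET2 had a step of 0.28 and TET1 one of 0.15 from 16 h to 24 h. Differences at the 3 times share the control array, and successive steps share the array between them.

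The measured gene closest to HELLS over the 3 differences was FANCM, a helicase-like protein of DNA repair, at a Euclidean distance of 0.067 (log2). FANCM stood at -0.051, -0.93 and -0.91 against control at 8, 16 and 24 h. Its late intensities of 88.1 and 89.4 lay under the array medians, against 168 in control cells, so the size of its late differences and this distance are uncertain. Next came MCM2 and MCM3, subunits of the replicative helicase, at distances of 0.14 and 0.17, and POLE2, a subunit of DNA polymerase epsilon, at 0.18. CDCA7, by its brighter probe set, had no neighbour as near. CDCA7 was selected for low late values, and few genes lie that low, so larger distances came with the selection. The contrast with HELLS therefore shows nothing about CDCA7 beyond those values. The closest to CDCA7 were CRYBB1, a crystallin (distance 0.40), MAL2, a membrane protein of transport vesicles (0.41), and TUBB2B, a beta-tubulin (0.64). KLF2, a transcription factor of lymphocytes, followed at 0.66, PSMC3IP, a cofactor of recombination, at 0.76 and CENPK, a kinetochore protein, at 0.81. MAL2 stood at -0.43, -1.44 and -1.62 and PSMC3IP at -0.58, -1.16 and -1.16. These are likenesses over 3 differences that share 1 control array. The dimmer probe set of CDCA7, at -0.52, -1.01 and -1.07, lay closer to PSMC3IP than the brighter one did at each time. Distances from the dimmer probe set were not computed.

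S phase genes were lower on the same arrays as CDCA7, HELLS, UHRF1 and DNMT1. All 22 S phase genes of the list were measured, and their medians were -0.048, -0.51 and -0.74 (log2) at 8, 16 and 24 h, with 22 of 22 below 0 on both late arrays, where 45.7% and 47.4% of all measured genes were. Of them 6 were at least 2-fold lower at 24 h, among them MCM5 (-1.30) and MCM2 (-1.05) of the replicative helicase, its loader CDC6 (-1.08) and GINS2 (-1.16), which joins the helicase. At 24 h, 7 of the 22 were lower than HELLS, 5 lower than UHRF1 and 14 lower than DNMT1. CDCA7, selected for its low late values, was below all 22 by 224428_s_at but not by 230060_at, whose -1.07 at 24 h lay above CDC6, MCM5 and GINS2. The 18 G2 and M genes had medians of 0.10, -0.11 and -0.12, and 0 of them were at least 2-fold lower at 24 h. At 16 h CENPE, a kinetochore motor, stood at -1.75, CENPF at -0.77, MKI67 at -0.61 and KIF11, a spindle motor, at -0.57. CENPE and CENPF were at -0.34 and 0.024 at 24 h, a dip that CDCA7, HELLS and UHRF1 did not have. In whole cultures fewer cells in S phase and less RNA per cell cannot be told apart, and the part of cell cycle position in these differences was not tested.

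Among partners of the upkeep machinery, the largest differences were those of PCNA and LIG1, which also act in replication. Of 15 measured partners, 8, 11 and 10 were below 0 at 8, 16 and 24 h, where 48.3%, 45.7% and 47.4% of all measured genes were, with medians of -0.030, -0.085 and -0.16 (log2) and none past 2-fold. PCNA, the sliding clamp that DNMT1 binds, had intensities of 7547 in control cells and 7588, 5116 and 4567 after 8, 16 and 24 h of treatment, and stood at -0.72 at 24 h. LIG1, the ligase that seals the new strand and that UHRF1 binds, had 694, 731, 516 and 431 in the order of time (-0.69 at 24 h). PCNA and LIG1 were the 2 partners at least 1.5-fold lower at 24 h. SUV39H1, a methyltransferase of histone tails in heterochromatin, stood at -0.10, -0.31 and -0.53. CDCA7L, the paralogue of CDCA7 and also in the list of CDCA genes, stood at 0.042, -0.13 and -0.45, with 2135 on the control array and 1560 at 24 h. ZBTB24, which activates CDCA7 transcription and which is named here because it is the remaining gene of ICF syndrome, stood at -0.10, -0.089 and 0.040. DNMT3B, HELLS and CDCA7 were lower at 24 h than control and ZBTB24 was within 1 pooled SD of it.

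The other genes of the CDCA list, most of which carry that name as genes linked to cell division, were lower as well but by less. The list of 7 includes NUF2, whose symbol is not a CDCA name. All 7 were below 0 on both late arrays, where 45.7% and 47.4% of all measured genes were. Their medians were 0.042, -0.28 and -0.42 (log2) at 8, 16 and 24 h, and none was past 2-fold. The largest difference among them was that of CDCA4, at -0.14, -0.45 and -0.59, and CDCA8 and CDCA5, of chromosome segregation and cohesion, stood at -0.44 and -0.42 at 24 h. CDCA7 at -1.70 lay below all 7.

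Partners of the TET enzymes, readers of methylated CpG and genes of methyl donor supply had medians close to 0. Of 14 measured TET partners, 9 were below 0 at 24 h (47.4% of all measured genes were), with medians of -0.11, -0.049 and -0.068 (log2). CXXC4, a CpG-binding protein that lowers TET2 protein, had 515 in control cells and 456, 780 and 916 after 8, 16 and 24 h of treatment. CXXC4 thus was below control at 8 h (-0.18) and above it later (0.60 and 0.83). The stress genes GADD45A and GADD45B stood at 0.57 and -0.48 at 24 h, and XRCC1, of base excision repair, at -0.40.

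Of 11 measured readers, 6 were below 0 at 24 h, a share near the 47.4% of all measured genes, with medians of -0.0080, -0.058 and -0.085. MBD2, which binds methylated CpG, stood at -0.38 at 24 h, and ZBTB38, a zinc-finger reader, at -0.38 at 8 h and -0.12 at 24 h. ZBTB4, another reader, stood at 0.48 at 16 h. MBD5, which carries a related domain, stood at 0.73 at 16 h and 0.66 at 24 h, with a control intensity of 87.3, under the median of its array. Of 10 measured genes of methyl donor supply, with medians of 0.028, -0.0038 and -0.072, MAT2B, a subunit of methionine adenosyltransferase, stood at 0.45 at 16 h and 0.35 at 24 h. MTR, methionine synthase, stood at -0.45 at 8 h and -0.16 at 24 h, and SLC19A1, a folate carrier, at 0.20 at 8 h and -0.41 at 24 h. TYMS, which makes thymidylate and is also in the S phase list, stood at -0.65 at 24 h. No gene of these lists was past 2-fold at any time.

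**Figure D5:**
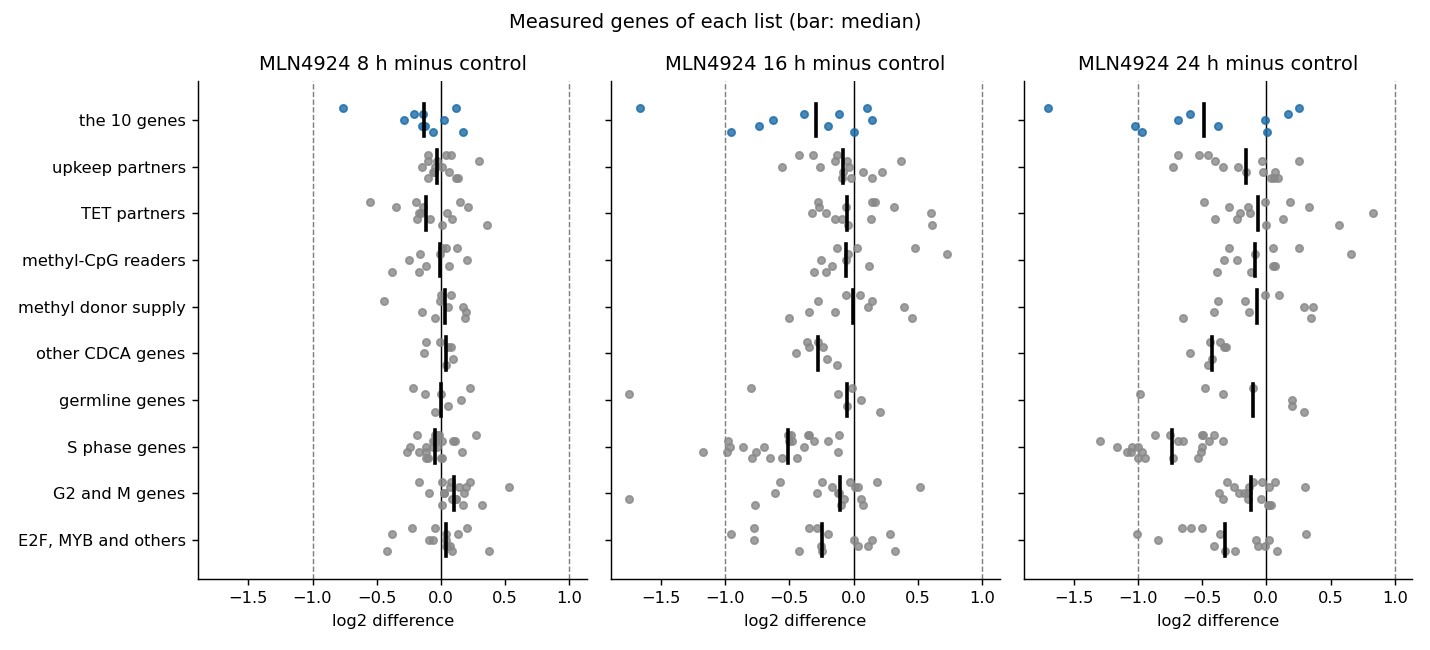
Log2 difference from control at 8, 16 and 24 h of the measured genes of each list, 1 point per gene, with the list median as a black bar and 2-fold as dashes. The 22 S phase genes lie left of 0 on both late arrays, and the 10 genes, in blue, spread from CDCA7 at the left to TET1 at the right at 24 h.

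Most regulators tied to the promoters of CDCA7, UHRF1 and DNMT1 were lower than control at 24 h. Of 15 measured factors 12 were below 0 at 24 h, as were 47.4% of all measured genes, and the medians were 0.039, -0.24 and -0.32 (log2). E2F2, an activator of S phase genes, had intensities of 1366 in control cells and 1046, 704 and 679 after 8, 16 and 24 h of treatment. E2F2 stood at -0.38, -0.96 and -1.01, and it alone of the 15 was past 2-fold, at 24 h. MYB, a transcription factor of blood progenitors, stood at -0.77 and -0.84 on the late arrays and RBL1, a pocket protein that restrains E2F factors, at -0.78 and -0.65. E2F8, a repressor of the family, stood at 0.20 at 8 h and -0.59 at 24 h. MYC, named because CDCA7 is a known MYC target, stood at 0.039, 0.035 and -0.065.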

How the data were processed

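Biotin-labelled cRNA was prepared from total RNA of MM.1S cells for Affymetrix arrays, per the labels' protocols. The deposited values are intensity units on a linear scale for 54675 probe sets; how the authors summarised and normalised them is not given in the sources used here. Array medians lay within 0.048 (log2) of each other, so no normalization was added. No detection calls were used.

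Of the probe sets, 41097 were annotated to exactly 1 gene, 1801 to several and 11777 were unlisted. Values under the 25th percentile (48.4) were set to it before taking log2. The probe set with the highest mean stood for its gene, and the gene counted as measured when that mean passed the median of all probe sets (93.9), which left 12446 genes. Genes differing at least 2-fold were counted. There was 1 array per group and hence no test, and the number of arrays limits the precision. The script was tested on simulated data.

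Gene positions and promoter windows came from RefSeq (GRCh38.p14). The planned comparison of proteins was not run, as no protein sequences were used here. Genes named were the 10 members, the 4 genes of each list with the largest difference at any time, the 6 and 4 nearest to CDCA7 and HELLS, and ZBTB24 and MYC, which were added after their values were seen. Members and lists were chosen with earlier results of these data known. Python 3.11.15, pandas 2.3.3 and numpy 2.4.6 were used. Alternatives were medians over all probe sets of a gene, no probe sets named _x_at or _s_at, another floor, a pseudocount of 16, quantile normalization, centring, and other filters.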

Additional observations from a re-analysis of the deposited data

Results flagged for a closer look

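Among the genes named, 4 had differences from control of opposite sign at different times, each larger than 1 pooled SD between probe sets of the same gene, and the difference between times was not tested. With 1 array per time, each value rests on a single pair of arrays. CXXC4 stood at -0.18 (log2) at 8 h, 0.60 at 16 h and 0.83 at 24 h. CENPF stood at 0.17 at 8 h and -0.77 at 16 h. Both CXXC4 and CENPF passed the 8 h pooled SD of 0.16 only narrowly. E2F8 stood at 0.20 at 8 h, -0.28 at 16 h and -0.59 at 24 h. SLC19A1 stood at 0.20 at 8 h, -0.35 at 16 h and -0.41 at 24 h. None of CDCA7, HELLS, UHRF1, UHRF2, DNMT1, DNMT3A, DNMT3B, TET1, TET2 and TET3 met this criterion. How many of all 12446 measured genes would meet it was not counted, and list genes were mostly named for large differences. Neither the 4 genes nor the lack of members among them can thus be called unusual.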

How the results depend on the processing

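The 2-fold counts of the members were within 1.5 times the given ones under all 9 alternatives. Without probe sets named _x_at and _s_at, which leaves DNMT1 and DNMT3B with none, the number at least 1.5-fold lower at 8 h was 0 and CDCA7 stood at -1.07 at 24 h. It stood at -1.38 with the median over probe sets, which put TET3 at -0.44. The median of the members at 16 h was -0.50 with a filter at the 75th percentile. The methyl donor median at 16 h was -0.28 without _x_at and _s_at probe sets. The germline median at 24 h was 0.20 in that setting and -0.34 with the 75th percentile filter. Of 258 member values under alternatives 15 moved by over 1 pooled SD; the cause was not tested. Over the alternatives HELLS ranged from -0.97 to -0.92 and UHRF1 from -1.03 to -1.02 at 24 h. UHRF1 has 1 bright probe set, so the settings on probe sets, floor and filters could not change its value. No paired analysis was possible because each group has 1 array. The dimmer probe sets of DNMT3A and TET3 and 230060_at of CDCA7 lay near the array medians, where the size of a difference is uncertain. The probe sets that stand for DNMT3A and DNMT3B, at most 191 and 236, were not far above those medians.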

Other observations

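Germline genes that promoter methylation is known to keep silent in many somatic cells were also examined, although some of them were far above the array median of 92.2 in these control cells, with SYCP3 at 3764 and MAGEA1 at 3246. Of 26 such genes, 25 had a probe set of their own and 7 were measured, and the medians of these were 0.0031, -0.054 and -0.11 (log2) at 8, 16 and 24 h. None of the 7 was at least 2-fold higher at any time, where 0.129%, 0.386% and 0.514% of measured genes were at 8, 16 and 24 h. This count leaves out the germline genes too dim to count as measured, so it cannot show whether silent ones stayed silent. PRAME, a cancer-testis antigen, stood at -0.046, 0.20 and 0.30, with intensities of 315 in control cells and 305, 363 and 387 after 8, 16 and 24 h of treatment. MAGEA1, another antigen of this class, stood at -0.34 at 24 h. TEX15, a germ cell gene of recombination, had 364 in control cells and 333, 108 and 184 after 8, 16 and 24 h of treatment. That is a difference of -1.75 at 16 h and -0.98 at 24 h, with the lowest value on the 16 h array. SYCP3, of the meiotic chromosome axis, had the same shape, at -0.80 at 16 h and -0.48 at 24 h.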
